A study of Homo sapiens with 16 samples.

Results

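A set of 9 genes whose products mark mitochondria for removal was followed across 16 RNA sequencing libraries of DU145 cells. They are BNIP3, BNIP3L, FUNDC1, FKBP8, BCL2L13, PHB2, PINK1, NIPSNAP1 and NIPSNAP2, 9 of the 64792 gene identifiers in the deposited table. The list brings together receptors and tags of mitophagy by name, and BNIP3 and NIPSNAP1 head it and were chosen by their higher levels in lactate against control, already known from these data. All 9 passed the filter on low counts, as did 14690 genes in all, and no member passed it through a single group, since the lowest count of a member in any library was 219 (FUNDC1).

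DU145 is an established human prostate cancer line. The groups were cells given lactate and I-BET762 together, cells given lactate alone, cells given I-BET762 alone, and control cells, with 4 libraries each. I-BET762 is a small molecule that keeps BET proteins from binding acetylated histones. Neither treatment comes with a dose or a duration in the labels. All groups come from a single line, and the labels call the replicates independent without saying whether they were separate cultures, so p-values measure the spread between these libraries. By its title, the study asked how lactate acts on the lipids and the epigenome of such cells.

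Mitophagy is the delivery of mitochondria to the lysosome inside autophagosomes. In its receptor-driven form, proteins of the outer mitochondrial membrane bind ATG8 proteins (the LC3 and GABARAP families) on the growing autophagosome. BNIP3 and its close relative BNIP3L (also called NIX), FUNDC1, FKBP8 and BCL2L13 are such receptors, and BNIP3 and BNIP3L are textbook targets of the hypoxia-inducible factor HIF. In the ubiquitin-driven form, the kinase PINK1 builds up on damaged mitochondria and phosphorylates ubiquitin on their surface, which draws adaptors such as p62 (SQSTM1). PHB2, a prohibitin of the inner membrane, binds LC3 once the outer membrane has broken. NIPSNAP1 and NIPSNAP2 are matrix proteins that gather on the surface of depolarised mitochondria and recruit autophagy adaptors.

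Promoters are shown for the member with the widest change, for the other member named with it, and for NIPSNAP1's paralogue, because the paralogues differed in their levels while BNIP3 and NIPSNAP1 were higher in the same groups. The windows run from 250 bases before to 50 bases after the start of the gene in RefSeq (GRCh38.p14), 5′ to 3′ on the strand of the gene. Capitals mark the core letters of the HIF element (ACGTG or GCGTG) on either strand, so that CACGC is GCGTG read on the other strand. Promoters of 6 of the 9 members were examined, those of BNIP3, NIPSNAP1, NIPSNAP2, PHB2, BCL2L13 and FUNDC1. The other members were left out of the motif search, so matches in their promoters were not counted. Their absence does not mean that RefSeq holds no promoter for them. The BNIP3 window is chr10:131981874-131982173 on the minus strand, that of NIPSNAP1 is chr22:29581064-29581363 on the minus strand, and that of NIPSNAP2 is chr7:55964335-55964634 on the plus strand.
BNIP3: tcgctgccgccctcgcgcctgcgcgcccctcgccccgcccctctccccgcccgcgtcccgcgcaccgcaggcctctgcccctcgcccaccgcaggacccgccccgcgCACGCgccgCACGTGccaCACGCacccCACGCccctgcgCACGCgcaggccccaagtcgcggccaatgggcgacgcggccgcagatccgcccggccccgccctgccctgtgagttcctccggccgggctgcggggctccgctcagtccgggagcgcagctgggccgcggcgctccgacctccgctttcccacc
NIPSNAP1: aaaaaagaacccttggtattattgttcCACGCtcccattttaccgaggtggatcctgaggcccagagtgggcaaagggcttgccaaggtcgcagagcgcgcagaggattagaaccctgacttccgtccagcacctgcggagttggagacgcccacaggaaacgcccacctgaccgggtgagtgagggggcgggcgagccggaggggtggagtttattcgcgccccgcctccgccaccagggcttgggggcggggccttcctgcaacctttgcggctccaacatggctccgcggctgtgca
NIPSNAP2: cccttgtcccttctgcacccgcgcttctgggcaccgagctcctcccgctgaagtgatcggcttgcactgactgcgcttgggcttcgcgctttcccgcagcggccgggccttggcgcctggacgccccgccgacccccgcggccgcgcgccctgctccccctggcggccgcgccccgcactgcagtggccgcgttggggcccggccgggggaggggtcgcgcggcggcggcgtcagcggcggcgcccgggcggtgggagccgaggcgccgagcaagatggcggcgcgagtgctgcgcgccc
The BNIP3 window held 2 matches to ACGTG and 4 to GCGTG. The 2 ACGTG matches lie on opposite strands and overlap in the palindrome CACGTG, which starts 134 bases before the gene start (position -134). The 4 GCGTG matches all read on the other strand, at -143, -125, -116 and -104. At least 6 matches stood in 324 of 35116 RefSeq promoters of the same length (0.923%). These were not matched for GC content, which was 80.7% in the BNIP3 window. The NIPSNAP1 window held 1 GCGTG match, at -223, and none to ACGTG, and the NIPSNAP2 window held neither. BCL2L13, not called in lactate against control (log2 fold change 0.10), also had 1 GCGTG match, at -17, in 1 of its windows. Windows of FUNDC1 and PHB2 held neither motif. ACGTG occurred in 21.4% of all promoters, GCGTG in 36.5%, CACGTG in 7.3%, and either of the first 2 motifs in 48.4%. These are letter matches only, and no binding was measured.

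Library facts that touch the values come first. Total counts were 14358751 to 14641934 per library with both treatments, 10711859 to 17173584 with lactate, 13741178 to 16847884 with I-BET762 and 13300345 to 15867437 in control. HEXIM1, a gene known to go up under BET inhibitors, set 2 libraries apart from their groups. The library labelled I-BET762 replicate 2 held 89.6 CPM (read counts scaled to a common library size), and the other I-BET762 libraries 113.3 to 148.8 CPM. The library labelled control replicate 2 held 135.1 CPM, and the other controls 70.0 to 77.4 CPM. Lactate libraries held 69.6 to 86.0 CPM, and libraries with both treatments 115.1 to 156.9 CPM. The labels were kept. Values without these 2 libraries are given for the members, and a call of another named gene that was lost without them is named as such. The level of each gene relative to its mean over all 16 libraries trended with GC content in a way that differed between groups. Across genes within a library, its Spearman's rho on GC content was 0.06 to 0.43 with both treatments and -0.02 to 0.32 with lactate. It was -0.18 to 0.17 with I-BET762 and -0.55 to -0.30 in control. For each member, fold changes are also given with smooth trends on GC content and exon length removed together, and the parts of GC content and of length were not tested apart. Epithelial markers (EPCAM, KRT8, KRT18, KRT19, CDH1) summed to 1899.8 to 3349.9 CPM in every library. Of the luminal prostate markers, KLK3 reached at most 0.1 CPM and TMPRSS2 0.3 CPM. Fibroblast markers summed to at most 10.2 CPM, with DCN at 0, and leukocyte markers to at most 2.4 CPM, with CD3E and LST1 at 0.

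BNIP3 was higher in both groups that received lactate, whether or not the inhibitor was present. The gene (ENSG00000176171) lies on chromosome 10 at 131966455 to 131982013, minus strand, in GRCh38. With both treatments its level was 384.5, 413.6, 415.5 and 404.5 CPM in replicates 1 to 4, and with lactate alone 467.8, 344.8, 333.4 and 410.5 CPM. With I-BET762 alone it was 158.5, 123.4, 142.8 and 129.5 CPM, and in control 150.5, 168.4, 124.5 and 129.7 CPM. The 8 libraries with lactate all lay above the 8 without it, and the inhibitor groups overlapped their counterparts on either side. On the log2 scale the difference was 1.44 (SE 0.13, 2.72-fold) for lactate against control and 1.55 (SE 0.13, 2.92-fold) for both treatments against I-BET762. In bulk RNA a change in every cell cannot be told apart from a change in some of the cells. No p is given for BNIP3 or NIPSNAP1 in any comparison, because their values chose them. After the GC and length correction the same differences were 1.48 and 1.50. Leaving out each library in turn gave 1.33 to 1.53 and 1.49 to 1.62. Among the 44 BNIP3 pseudogenes in the table, counts summed to 311 over all libraries, 0.507% of the 61325 counts of BNIP3.

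**Figure D1:**
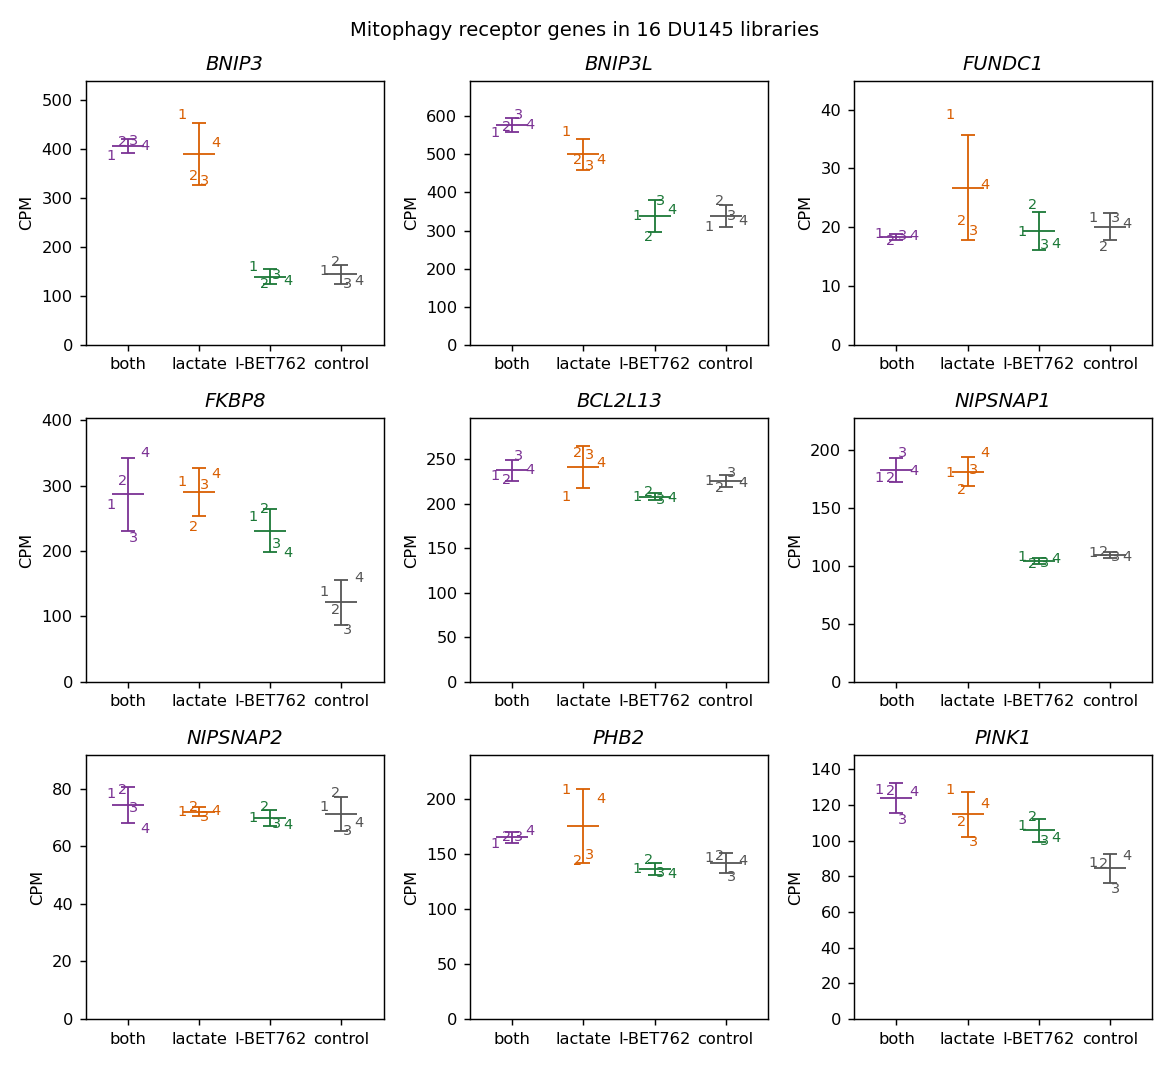
Level of each member in every library, in CPM on TMM-scaled library sizes (y axis, from 0), by group (x axis); digits are the replicate numbers of the libraries and bars are group means with SD (n = 4). BNIP3 lies between 333.4 and 467.8 CPM in the libraries given lactate and between 123.4 and 168.4 CPM in the others, and NIPSNAP2 stays between 65.4 and 79.7 CPM throughout.

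BNIP3L showed the same division of groups over a narrower range. Its level was 556.8, 571.4, 602.5 and 577.4 CPM with both treatments and 559.4, 484.8, 468.7 and 486.2 CPM with lactate. It was 338.8, 281.8, 378.7 and 352.8 CPM with I-BET762 and 309.9, 378.5, 338.2 and 324.6 CPM in control. Again every library with lactate exceeded every library without it. Both treatments against I-BET762 gave a log2 fold change of 0.77 (SE 0.10, 1.71-fold, edgeR adjusted p = 0.000529), and lactate against control 0.57 (SE 0.10). The GC and length correction gave 0.81 and 0.66. Per kilobase of annotated exon, BNIP3L stood at 134.0 ± 4.4 CPM per kb with both treatments, and BNIP3 at 76.0 ± 2.7 CPM per kb (SD, n = 4 each). In control the levels were 78.4 ± 6.9 CPM per kb for BNIP3L and 26.9 ± 3.8 CPM per kb for BNIP3. The divisor was the exon length annotated for each gene, 4307 bases for BNIP3L and 5325 bases for BNIP3. The lengths of the transcripts present were not measured. Whether transcripts of BNIP3L outnumbered those of BNIP3 was therefore not tested. BNIP3L shares 330 exon bases with PNMA2 on the opposite strand, and whether the counting used strand is not stated. The promoters of BNIP3L, FKBP8 and PINK1 were left out of the motif search. Whether the BNIP3L promoter holds the core letters of the HIF element, as the BNIP3 window does, was therefore not tested.

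NIPSNAP1 was higher in both groups given lactate, and the libraries of its paralogue NIPSNAP2 overlapped across all groups. NIPSNAP1 (ENSG00000184117, chromosome 22, 29554808 to 29581337, minus strand) stood at 175.5, 175.3, 197.4 and 181.8 CPM with both treatments and at 179.6, 165.4, 182.2 and 196.8 CPM with lactate. It stood at 107.4, 101.8, 102.4 and 105.4 CPM with I-BET762 and at 111.3, 111.5, 107.4 and 107.3 CPM in control. The gap between the lowest library with lactate and the highest without it was wider than the spread within any group. The log2 fold change was 0.73 (SE 0.08, 1.65-fold) for lactate against control and 0.81 (SE 0.08, 1.75-fold) for both treatments against I-BET762, and 0.53 and 0.71 after the GC and length correction. NIPSNAP2 (chromosome 7, 55951793 to 56000181, plus strand) averaged 74.4 ± 6.2 CPM with both treatments, 72.1 ± 1.5 CPM with lactate, 69.8 ± 2.9 CPM with I-BET762 and 71.4 ± 5.9 CPM in control (SD, n = 4 each). All 4 groups overlapped. Its log2 fold change was 0.01 (SE 0.09) for lactate against control and 0.09 (SE 0.09, adjusted p = 0.635 in edgeR) for both treatments against I-BET762, and 0.16 and 0.13 after the GC and length correction. NIPSNAP1 shares 158 exon bases with THOC5 and NIPSNAP2 112 with MRPS17, each on its own strand, and their counts are uncertain to that extent.

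FKBP8, an outer membrane receptor that binds LC3A, was lowest in control and higher in all 3 treated groups. It lies on chromosome 19 at 18531751 to 18544077, minus strand. With both treatments it stood at 270.6, 306.7, 219.5 and 350.6 CPM, and with lactate at 305.7, 236.1, 301.5 and 318.5 CPM. With I-BET762 it stood at 251.9, 265.0, 210.2 and 197.6 CPM, and in control at 137.8, 110.2, 79.5 and 158.9 CPM. Every treated library exceeded every control, and the 3 treated groups overlapped. The log2 fold change was 1.26 (SE 0.19) for lactate against control, 0.93 (SE 0.19, edgeR adjusted p = 0.0473) for I-BET762 against control and 1.24 (SE 0.19, adjusted p = 0.000485) for both treatments against control. Both treatments against I-BET762 gave 0.31 (SE 0.19, adjusted p = 0.387), and 0.03 after the GC and length correction. FKBP8 is the member richest in GC, with 66.6% in its longest transcript. After the joint correction the 3 differences from control were 0.45, 0.29 (adjusted p = 0.516) and 0.31 (adjusted p = 0.0470). The I-BET762 call was also lost without control replicate 1, 2 or 3 (adjusted p = 0.152, 0.0635 and 0.211) and without I-BET762 replicate 1, 2 or 3 (0.216, 0.111 and 0.0983). It was lost without both libraries that HEXIM1 set apart (0.81, adjusted p = 0.0979), on total counts alone (0.0523) and in limma-voom (0.0561).

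**Figure D2:**
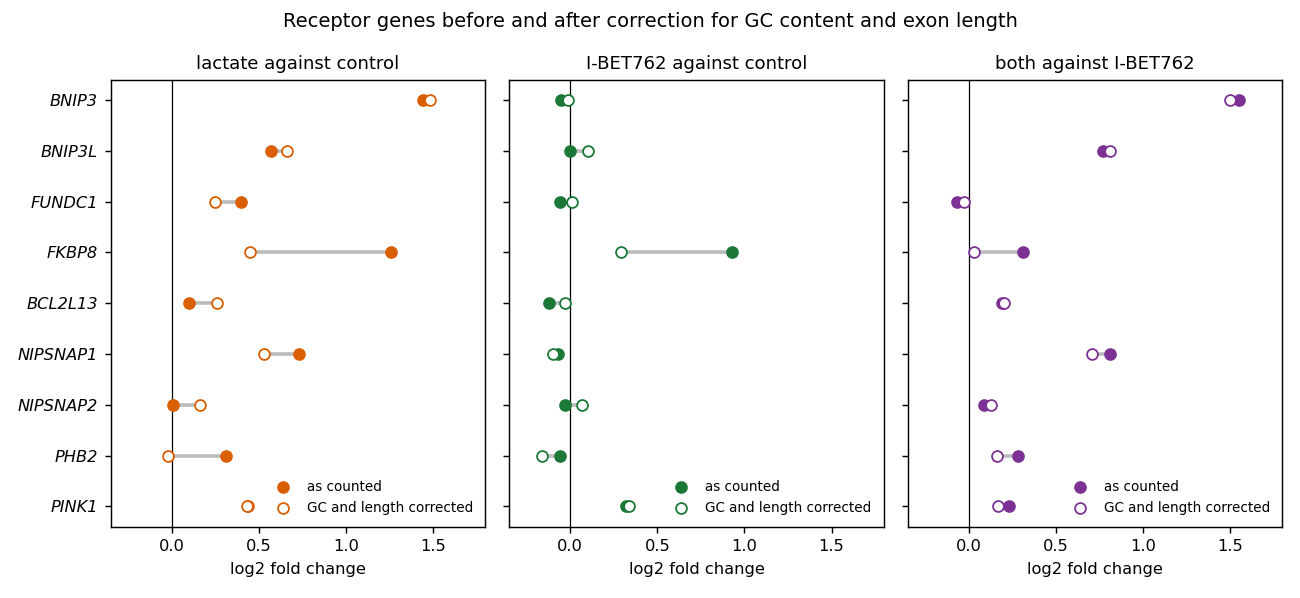
Log2 fold change of each member as counted and once corrected for GC content and exon length (x axis), for lactate against control, I-BET762 against control and both treatments against I-BET762; a line joins the 2 values of a member. FKBP8 moves to 0.45 and PHB2 to -0.02 in lactate against control, while BNIP3 stays at 1.48.

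PINK1, the kinase that starts the ubiquitin-driven route, also had its lowest levels in control. It lies on chromosome 1 at 20633455 to 20651511, plus strand. Its level was 128.2, 128.0, 111.5 and 127.4 CPM with both treatments and 128.5, 110.3, 99.3 and 120.3 CPM with lactate. It was 108.4, 113.3, 99.6 and 101.4 CPM with I-BET762 and 87.2, 86.6, 72.6 and 91.5 CPM in control. No control library reached any treated one, and the treated groups overlapped. Against control the log2 fold change was 0.55 (SE 0.10, edgeR adjusted p = 0.00167) for both treatments, 0.44 (SE 0.10) for lactate and 0.32 (SE 0.10, adjusted p = 0.144) for I-BET762, the last short of the threshold. The GC and length correction left 0.51, 0.43 and 0.34. PINK1 shares 1907 exon bases with its antisense gene PINK1-AS, which had 2419 counts over all libraries. Reads of the 2 genes cannot be told apart unless strand was used.

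PHB2, the inner membrane receptor (chromosome 12, 6965327 to 6970825, minus strand), was measured at 158.8, 165.6, 165.7 and 171.2 CPM with both treatments and at 208.5, 143.8, 149.4 and 200.0 CPM with lactate. With I-BET762 it was at 136.4, 144.3, 132.8 and 131.9 CPM, and in control at 146.8, 147.9, 129.1 and 143.6 CPM. Lactate replicates 1 and 4 were the highest of all libraries, and lactate replicates 2 and 3 lay within or just above the range of the controls. Those same replicates 1 and 4 had the lowest rho on exon length of levels relative to each gene's mean, -0.40 and -0.42. Lactate replicates 2 and 3 had 0.24 and 0.10. Lactate against control gave a log2 fold change of 0.31 (SE 0.11), and -0.02 after the GC and length correction. It was not called, but it was called on total counts alone (0.30), among genes of at least 5 CPM (0.37), in DESeq2, and without lactate replicate 2 or 3. Both treatments against I-BET762 gave 0.28 (SE 0.11, edgeR adjusted p = 0.177) with no overlap between the groups, and 0.16 after the correction.

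FUNDC1, a receptor known from mitophagy at low oxygen, was the member with the fewest reads. It lies on chromosome X at 44523639 to 44543001, minus strand. It stood at 18.9, 17.6, 18.4 and 18.4 CPM with both treatments, at 39.0, 21.0, 19.4 and 27.2 CPM with lactate, at 19.1, 23.8, 17.0 and 17.2 CPM with I-BET762 and at 21.5, 16.6, 21.5 and 20.6 CPM in control. Lactate replicates 1 and 4 were again the highest, and lactate replicates 2 and 3 fell among the controls. Both treatments against lactate gave -0.53 (SE 0.18, edgeR adjusted p = 0.267), with every library of both treatments below every lactate library. The log2 fold change was 0.40 (SE 0.18) for lactate against control, not called. It was 0.15 without lactate replicate 1, 0.53 and called without lactate replicate 3, and 0.25 after the GC and length correction. BCL2L13, the mammalian counterpart of the yeast receptor Atg32 (chromosome 22, 17628855 to 17730855, plus strand), averaged 237.8 ± 11.9 CPM with both treatments, 241.7 ± 23.4 CPM with lactate, 208.0 ± 4.1 CPM with I-BET762 and 225.7 ± 6.9 CPM in control (SD, n = 4 each). Its I-BET762 libraries were all below the controls, by a log2 fold change of -0.12 (SE 0.09, adjusted p = 0.719). Both treatments against I-BET762 gave 0.19 (SE 0.09, adjusted p = 0.224), again with no overlap, and 0.20 after the GC and length correction. Lactate against control gave 0.10 (SE 0.09), not called, and 0.26 after that correction, then called.

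In lactate against control, 5 of 9 members were higher at an adjusted p under 0.05 and 0 lower. Over all genes tested 23.7% were called, 13.6% as higher and 10.1% as lower. The 5 were BNIP3, BNIP3L, FKBP8, NIPSNAP1 and PINK1. The members' median log2 fold change was 0.44, against 0.03 over all genes. Lactate against control is the comparison that put BNIP3 and NIPSNAP1 on the list, so nothing is read from that count or median. In both treatments against I-BET762, libraries that do not enter lactate against control, 3 of 9 members were called higher (BNIP3, BNIP3L and NIPSNAP1), against 4.90% of all genes in either direction, 3.34% higher and 1.57% lower. Of the 7 members other than BNIP3 and NIPSNAP1, 1 was called there, BNIP3L. Counts over all 9 members hold BNIP3 and NIPSNAP1, which their values chose, so nothing is read from the calls of these genes. The median over all 9 members was 0.28, against 0.00 over all genes. Groups without overlap were found for 5 members in lactate against control (20.0% of all genes), 5 in both treatments against I-BET762 (22.5%), 6 in both treatments against control (31.2%), 3 in I-BET762 against control (10.8%) and 1 in both treatments against lactate (7.60%). In the fit of the 8 libraries with I-BET762 alone or with both treatments, PHB2, PINK1 and BCL2L13 passed as well, at adjusted p = 0.00881, 0.0440 and 0.0401, which makes 6 of 9. That fit called 2567 of all genes, 17.5%. After the GC and length correction the calls over all genes in this comparison were 598 higher and 555 lower, in place of 490 and 230.

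With the library labelled control replicate 2 and that labelled I-BET762 replicate 2 left out, both treatments against I-BET762 gave 1.49 for BNIP3, 0.80 for NIPSNAP1 and 0.69 for BNIP3L (edgeR adjusted p = 0.00196). Lactate against control then gave 1.53 for BNIP3, 0.62 for BNIP3L, 0.74 for NIPSNAP1, 1.21 for FKBP8 and 0.45 for PINK1. No direction of these members turned.

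**Figure D3:**
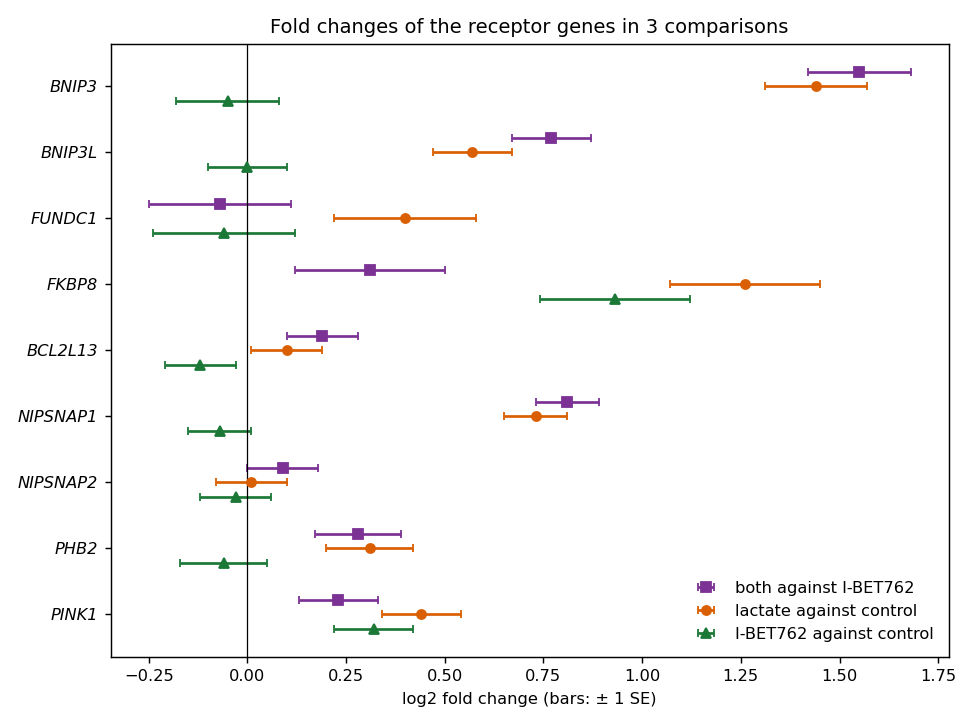
Log2 fold change of each member (x axis) in both treatments against I-BET762, lactate against control and I-BET762 against control; bars are 1 SE either way. BNIP3 (1.55 and 1.44), BNIP3L (0.77 and 0.57) and NIPSNAP1 (0.81 and 0.73) lie right of 0 in the comparisons that add lactate and within 0.07 of 0 in I-BET762 against control.

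For BNIP3 and NIPSNAP1 the response to lactate differed little between cells with and without the inhibitor, within the intervals given here. The interaction, the lactate difference with the inhibitor minus that without it, was 0.10 on the log2 scale for BNIP3 (95% interval -0.27 to 0.48) and 0.08 for NIPSNAP1 (-0.16 to 0.32). For BNIP3L it was 0.21 (-0.10 to 0.52). FKBP8 had the interaction farthest from 0, -0.94 (95% interval -1.50 to -0.39, SE 0.26, adjusted p = 0.7 in edgeR), and -0.42 after the GC and length correction. Of the 9 members, 0 passed the interaction test in edgeR, 1 had an unadjusted p under 0.05 (FKBP8) and 0 passed in DESeq2 or limma-voom. The share called over all genes was 0%. In both treatments against lactate, 0 of 9 members passed in edgeR, in DESeq2 and in limma-voom, 1 had an unadjusted p under 0.05 (FUNDC1), and again 0% of all genes were called. The intervals of that comparison were -0.21 to 0.32 for BNIP3, -0.01 to 0.43 for BNIP3L and -0.16 to 0.18 for NIPSNAP1. In I-BET762 against control, FKBP8 alone was called, 1 of 9 against 0.442% of all genes, with the limits given above. Both treatments against control shared its control libraries with lactate against control and gave 1.50 (SE 0.13) for BNIP3, 0.77 (SE 0.10, adjusted p = 0.000233) for BNIP3L and 0.74 (SE 0.08) for NIPSNAP1. It called 5 of 9 members, against 20.7% of all genes. BNIP3 and NIPSNAP1 are among the 5, so nothing is read from that count. Of all genes called, 1911 were higher and 1134 lower, or 1013 higher and 995 lower after the GC and length correction.

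The order of the 4 groups by mean level divided the members. BNIP3, BNIP3L and NIPSNAP1 had both treatments first and lactate next, with overlapping libraries, then a gap without overlap, and then I-BET762 and control, which overlapped. FKBP8 and PINK1 had their gap between the 3 treated groups and control instead. PHB2 had lactate first and both treatments next, and of its neighbouring groups both treatments and control were free of overlap. For BCL2L13 these were control and I-BET762. No neighbouring groups of NIPSNAP2 or FUNDC1 were free of overlap. The highest group mean was 2.92 times the lowest for BNIP3, 2.39 times for FKBP8, 1.75 times for NIPSNAP1, 1.71 times for BNIP3L and 1.07 times for NIPSNAP2.

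The genes whose levels ran most like those of BNIP3 were sought by the root mean square difference of centred log2 CPM over all 16 libraries, among 10671 genes averaging 5 CPM or more. The nearest were WDR54 (0.18), GPR155 (0.23), the pyruvate dehydrogenase kinase PDK1 (0.24), the phosphofructokinase regulator PFKFB4 (0.24) and MYL5 (0.24). WDR54 averaged 43.9 CPM with lactate and 14.8 CPM in control. For NIPSNAP1 they were the glycolytic enzyme PGK1 (0.12), the sterol sensor partner INSIG2 (0.12), RASGEF1A (0.13), the phosphoglucomutase PGM1 (0.13) and CGREF1 (0.13). BNIP3L came at rank 8 for NIPSNAP1 (0.14) and at rank 120 for BNIP3 (0.43). NIPSNAP2 came at rank 1903 for its paralogue (0.37). These are descriptions over libraries that share groups and depth.

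The other lists of the pathway had medians between -0.27 and 0.01 in lactate against control, close to or below the 0.03 of all genes. Of the 5 ATG8 genes tested, MAP1LC3A (LC3A) was called higher with lactate and 0 lower, and the list's median log2 fold change was -0.04. MAP1LC3A stood at 26.1, 10.6, 13.1 and 14.0 CPM with lactate against 5.9, 3.4, 4.7 and 8.3 CPM in control (1.50, edgeR adjusted p = 0.00349), and at 0.68 (adjusted p = 0.0509) after the GC and length correction. MAP1LC3B (LC3B) had -0.08 (adjusted p = 0.582) and GABARAPL1 -0.21 (adjusted p = 0.348). Of 24 genes of autophagosome formation, 3 were higher and 4 lower (median 0.01). The lipid transfer protein ATG2B (-0.74) and the lipid kinase subunit PIK3R4 (-0.43) were lower, and the conjugating enzyme ATG10 (0.54) and the starting kinase ULK1 (0.52, adjusted p = 0.0448) higher. These 4 calls were lost when single libraries were left out, with no change of direction. ATG2B lost its call without lactate replicate 4, where it stood at -0.63 (adjusted p = 0.0502). ATG10 lost it without control replicate 1 or 3 or lactate replicate 1 or 4. PIK3R4 lost it without control replicate 1, 2 or 3 or lactate replicate 1 or 4, and ULK1 without control replicate 1, 2 or 3 or lactate replicate 2, 3 or 4. PIK3R4 then stood at -0.45 to -0.31 and ULK1 at 0.44 to 0.57. Without both libraries that HEXIM1 set apart, ATG10, PIK3R4 and ULK1 stood at 0.56, -0.39 and 0.44 (adjusted p = 0.0505, 0.0845 and 0.131). The list then had 1 gene higher and 2 lower, as it had after the GC and length correction. ULK1 also had 0.93 in I-BET762 against control (adjusted p = 0.0473), a call that ended without any of control replicates 1 to 3 or I-BET762 replicates 1 to 3, and without both libraries set apart by HEXIM1 (0.88, adjusted p = 0.0743). After the GC and length correction ULK1 stood at 0.01 with lactate and at 0.42 with I-BET762, and PIK3R4 at -0.30 with lactate (adjusted p = 0.0840).

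**Figure D4:**
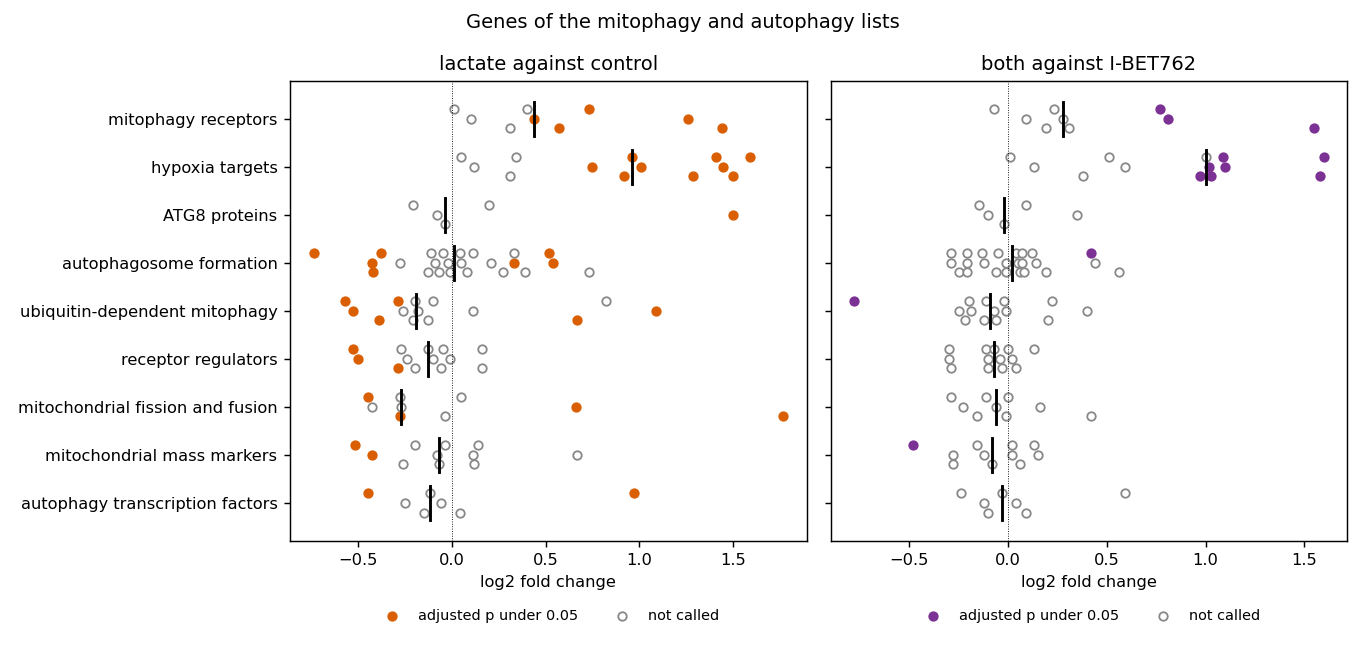
Log2 fold change (x axis) of every tested gene of the 9 members and of the other lists (rows), for lactate against control and for both treatments against I-BET762; filled points passed at an adjusted p under 0.05 and bars are list medians. The medians of the members (0.44 and 0.28) and of the hypoxia targets (0.96 and 1.00) lie right of 0. The medians of the other lists lie between -0.27 and 0.02. Nothing is read from the filled points of BNIP3 and NIPSNAP1, which their values chose.

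Of the ubiquitin-driven branch, 2 of 14 tested genes were higher and 4 lower with lactate (median -0.19). SQSTM1, the p62 adaptor, stood at 54.9, 78.6, 64.7 and 73.3 CPM with lactate and at 102.0, 88.6, 79.4 and 133.8 CPM in control (-0.57, edgeR adjusted p = 0.0105), with no overlap. With both treatments it stood at 67.4, 77.9, 75.6 and 75.6 CPM, against 117.8, 127.0, 133.6 and 130.5 CPM with I-BET762 (-0.78, adjusted p = 0.00518). The mitochondrial protease HTRA2 was higher with lactate (0.67, adjusted p = 0.00319, and 0.21 with adjusted p = 0.297 after the GC and length correction). The kinase TBK1 was lower (-0.53), a call lost without control replicate 3 or lactate replicate 4, without the 2 libraries set apart by HEXIM1 (adjusted p = 0.0609) and after the GC and length correction (-0.40, adjusted p = 0.0872). This list had 1 gene higher and 2 lower without those 2 libraries, and 1 and 1 after the correction. Among 13 regulators of the receptors, 0 were higher and 3 lower (median -0.13). PPTC7, a mitochondrial phosphatase known to keep BNIP3 and BNIP3L protein low, stood at 75.7, 105.2, 87.7 and 70.3 CPM with lactate and at 128.8, 123.1, 121.5 and 106.5 CPM in control (-0.50, adjusted p = 0.00914), with no overlap. Both treatments against I-BET762 gave -0.29 (adjusted p = 0.188) for PPTC7. The kinase subunit CSNK2A1 (-0.29) and the survival protein MCL1 (-0.53) were the other 2, and their calls were lost without control replicate 1 (CSNK2A1) and without control replicate 3 or 4 (MCL1). After the GC and length correction CSNK2A1 stood at -0.02 (adjusted p = 0.916) and MCL1 at -0.44 (adjusted p = 0.0526). BCL2 (-0.05, adjusted p = 0.936) and PHB1, the partner of PHB2 (0.16, adjusted p = 0.486), did not pass. When only lactate and control libraries were fitted, SQSTM1 and PPTC7 stood at adjusted p = 0.0875 and 0.0741, and TBK1, CSNK2A1 and MCL1 at 0.114, 0.148 and 0.12, and ATG2B, ATG10, PIK3R4 and ULK1 did not pass either.

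Known hypoxia targets, set beside BNIP3 as a list without the members, were higher with lactate in 9 of 13 genes and lower in 0 (median 0.96). The smallest p-values were those of PFKFB4 (1.45, edgeR adjusted p = 8.32e-06), NDRG1 (1.29) and PDK1 (1.50). In both treatments against I-BET762, 7 of 13 were higher and 0 lower (median 1.00), with PFKFB4 at 63.4, 63.0, 69.8 and 68.0 CPM against 19.5, 22.9, 22.2 and 23.6 CPM. In that comparison the ATG8 genes and the receptor regulators had 0 calls each in edgeR, DESeq2 and limma-voom, with 0 and 2 genes at an unadjusted p under 0.05. Autophagosome formation had 1, the phosphoinositide reader WIPI1 (0.42, adjusted p = 0.0311), named after its value was seen, and 0 without the 2 libraries set apart by HEXIM1. The hypoxia list was also chosen with earlier results of these data known, so its direction is no independent evidence.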

How the data were processed

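Polyadenylated RNA of DU145 cells was sequenced in 16 libraries, 4 groups of 4. Per the labels' protocols, 800 ng of RNA entered a kit that marks strand, with 75 bp single-end reads. Raw counts per Ensembl gene were deposited by the authors, 1 column per library. The submitters' processing notes name STAR 2.6.1c and DESeq, GRCh38.p12 and hg38. How reads were assigned to genes (program, strand option, annotation) is not given in the sources used here. The cell line field of the 4 samples with both treatments holds names that differ from the DU145 of the titles only in the last digit. The titles were followed.

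Genes were kept by edgeR's filterByExpr (minimum count 10, minimum total 15), which left 14690. Libraries were scaled by TMM, 4 group means were fitted over all libraries by quasi-likelihood in edgeR 4.0.16 (R 4.3.3), and p was Benjamini-Hochberg adjusted over all genes (two-sided, threshold 0.05). Log2 fold changes carry their SE, and levels are CPM as mean ± SD. Intervals are at 95%. The test was checked on simulated counts. Gene coordinates come from GENCODE release 29 on GRCh38, promoters from RefSeq.

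Members and lists were chosen with earlier results of these data known. Besides the members, up to 3 called genes of each list with the smallest p in lactate against control were named, with SQSTM1, MAP1LC3B, GABARAPL1, ULK1, BCL2 and PHB1 whatever their result (some items of the rule and of the marker lists are not reported here), HEXIM1 as the label check, and the 5 genes nearest to BNIP3 and to NIPSNAP1. Alternatives were RLE scaling, total counts alone, no filter, a mean of at least 5 CPM, DESeq2 1.42.0, limma-voom (limma 3.58.1), replicate number as a block, only the groups compared, smooth trends on GC content and exon length removed (mgcv 1.9.3), and libraries left out.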

Additional observations from a re-analysis of the deposited data

Results flagged for a closer look

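Of 36 sets of 4 libraries (9 members in 4 groups), 1 held a library that stood apart from the others. PINK1 was at 111.5 CPM in replicate 3 of the cells given both treatments, against 127.4 to 128.2 CPM in the other libraries of that group. The gap to the nearest library was 0.95 of the whole range. Chance alone sets apart about 1 in 20 such groups.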

How the results depend on the processing

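No result of the members changed direction past the threshold. In I-BET762 against control, 1 member was called, and 0 on total counts alone, after the GC and length correction, without control replicate 2 and I-BET762 replicate 2, and in limma-voom; leaving out single libraries gave 0 to 1. In both treatments against I-BET762, 3 members were called, and 6 when only the groups compared were fitted. Lactate against control gave 5 members. It gave 4 when only the groups compared were fitted (without PINK1), 6 on total counts alone, at 5 CPM or more, in DESeq2 and without lactate replicate 2 (PHB2 added), 6 after the GC and length correction (BCL2L13 added), and 7 without lactate replicate 3 (PHB2 and FUNDC1 added). The cause of these shifts was not tested. The calls over all genes moved further. Lactate against control gave 3486, or 885 with only the groups compared, 1849 without control replicate 3 and 2097 without lactate replicate 4. I-BET762 against control gave 65, with 0 to 542 over the alternatives and 0 to 279 with single libraries left out. Both treatments against I-BET762 gave 720, with 468 to 2567 over the alternatives and 283 to 580 with single libraries left out. Both treatments against lactate gave 0, or 197 without a filter and 103 in DESeq2, with 2294 at an unadjusted p under 0.05. Both treatments against control gave 3045, with 2008 to 4916 over the alternatives and 1708 to 3069 with single libraries left out. The interaction gave 0, or 3 without a filter, with 894 at an unadjusted p under 0.05. Labels share replicate numbers. Of 24 same-numbered pairs 16 correlated above 0.1 (-0.26 to 0.42), and 7 of 16 libraries matched best with their own number. The level that chance would give was not worked out, so whether same-numbered libraries belong together was not tested. The main fit did not take the numbers as pairs. With replicate number as a block, members called were 5 in lactate against control and 1 in I-BET762 against control. They were 3 in both treatments against I-BET762 and 5 in both treatments against control, with 0 in the others. Over all genes the block gave 4244, 206, 973 and 3549 calls in those comparisons, in place of 3486, 65, 720 and 3045. The genes of the other lists were put through the same alternatives, a choice made after seeing the data. Depth limits FUNDC1 most, with 219 to 384 counts per library.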

Other observations

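Genes that shape the mitochondrial network and mark its mass were also measured. Of 9 tested fission and fusion genes, 2 were higher and 2 lower with lactate (median log2 fold change -0.27). The fission adaptor FIS1 stood at 145.6, 69.7, 75.2 and 115.8 CPM with lactate and at 61.5, 64.0, 58.7 and 72.3 CPM in control (0.66). The fission motor DNM1L was lower (-0.45), and MTFP1 was higher (1.77) at no more than 24 counts in any library. FIS1 lost its call without control replicate 3, DNM1L without control replicate 2 or lactate replicate 4, and MTFP1 without control replicate 3 or lactate replicate 3. After the GC and length correction they stood at 0.23, -0.26 and 1.26, none past the threshold. Among 11 genes used as markers of mitochondrial mass, 0 were higher and 2 lower (median -0.07). The chaperone HSPD1 (-0.43) lost its call without lactate replicate 4 and after the GC and length correction (adjusted p = 0.0530). The citrate synthase gene CS (-0.52) lost it without any control library or lactate replicate 4. HSPD1 was also lower in both treatments against I-BET762 (-0.48, edgeR adjusted p = 0.0313), a call lost without any library of either group. Without control replicate 2 and I-BET762 replicate 2, the libraries that HEXIM1 set apart, DNM1L, HSPD1 and CS did not pass with lactate (adjusted p = 0.0597, 0.0536 and 0.0850).

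Of 7 transcription factors of autophagy and hypoxia, TFEB, a regulator of lysosomal genes, was higher with lactate at 8.0, 5.8, 7.1 and 6.6 CPM, against 4.3, 3.0, 2.3 and 4.5 CPM in control (0.97, edgeR adjusted p = 0.0118). HIF1A, which encodes the oxygen-regulated subunit of HIF, stood at 335.9, 587.0, 638.2 and 468.5 CPM with lactate and at 710.0, 795.2, 704.4 and 566.7 CPM in control (-0.45). That call was lost without control replicate 1, 2 or 3, without lactate replicate 1 or 4, without the 2 libraries that HEXIM1 set apart (adjusted p = 0.130), and after the GC and length correction (-0.31, adjusted p = 0.186). In both treatments against I-BET762, TFEB had 0.59 (adjusted p = 0.193). Among markers of cell type, KRT19 (0.76), KRT8 (0.49) and COL1A1 (0.82, at most 9.6 CPM) were called higher with lactate. After the GC and length correction they stood at 0.16, 0.44 and 0.52 (adjusted p = 0.511, 0.0533 and 0.0847), none past the threshold. KRT8 lost its call without control replicate 3 or lactate replicate 4, and COL1A1 without control replicate 1 or 3 or lactate replicate 3 or 4. When only lactate and control libraries were fitted, KRT19 (adjusted p = 0.0539), KRT8, COL1A1, FIS1, DNM1L, HSPD1, CS and HIF1A did not pass. The part of the cell type markers in the results of the members was not tested.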
